A study of Mus musculus with 14 samples.

Results

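A set of 10 genes of lipid uptake and of adipocytes was followed across all 14 libraries of a mouse bone marrow RNA sequencing study. They were Lpl, Cd36, Fabp4, Fabp5, Apoe, Pparg, Adipoq, Plin1, Cidec and Car3, 10 of the 55335 genes in the deposited table, matched by gene name. The members were chosen by measured values: Lpl and Car3 were high after CD45-targeted treatment, and Fabp5 differed between treatments. For that reason all values of the 10 genes in comparisons with the CD45-targeted group, and all values of Fabp5, are given as a description with no test. A filter on low counts left 21509 genes for testing, 9 of the 10 among them. Cidec did not pass, and Plin1 passed only through the libraries of the CD45-targeted group, in which it is high.

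The mice carried Cdh5 Cre and a Rosa26 TdTomato reporter in every group, so that cells in which the Cdh5 promoter has driven Cre are red. The cells were sorted as Lineage-, CD45- and TdTomato+ and are labelled as marrow endothelium. Controls were untreated (4 libraries). Total body irradiation (TBI, 5 libraries) was 500 cGy from a cesium source. Radioimmunotherapy (RIT), in which an antibody carries a radionuclide, here astatine-211 by the title of the study, was given at 20 µCi either on an IgG without a target (IgG RIT, 3 libraries) or with an antibody to CD45, a protein of blood cells (CD45 RIT, 2 libraries). Cells were taken 8 days after treatment. The sources used here give no age or sex and do not say whether each library came from a separate mouse, so p-values measure only the spread between these libraries, which may be technical.

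Lipoprotein lipase, the product of Lpl, splits the triglycerides of circulating lipoproteins into fatty acids, the transporter CD36 takes fatty acids into cells, and fatty acid binding proteins carry them inside. PPARγ is the nuclear receptor that drives fat cell formation, and perilipin and CIDEC coat the lipid droplets of mature fat cells. In marrow, Adipoq and Lpl are also known from reticular stromal cells that make Cxcl12, the chemokine that holds blood stem cells in the niche, and Cd36 is known from red cell precursors as well as from endothelium.

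Libraries held 16412779 to 31077588 counts. Markers of the labelled endothelium were mixed. Cdh5, which encodes VE-cadherin and drives the reporter, had 0 to 6 counts in untreated and TBI libraries and 0 counts in every RIT library. The summed level of 20 endothelial genes, in counts-per-million (CPM) of the total count, was 186 to 227 in untreated, 69.1 to 157 in TBI, 64.7 to 74.8 in IgG RIT and 82.5 to 307 in CD45 RIT libraries, with 1 to 11 of the 20 at 0 in a library. In untreated libraries Pecam1 was at 26.7 to 65.3 CPM, Eng at 23.7 to 34.7 and Egfl7 at 37 to 57.4. In CD45 RIT replicates 1 and 2 Kdr was at 0.0609 and 115, Plvap at 13.6 and 123 and Pecam1 at 0.366 and 0.192. Tek, Tie1 and Emcn had 0 counts in both. Of the 15 endothelial genes tested, 3 rose and 4 fell after CD45 RIT, where 14.5% of all tested genes rose and 18.6% fell. Markers of other marrow cells differed between the groups. The summed level of 20 stromal genes was 3310 to 8366 in untreated, 950 to 2238 in TBI, 393 to 1203 in IgG RIT and 33822 to 57038 in CD45 RIT libraries. That of 19 erythroid genes was 9591 to 16848 in untreated libraries, 29339 to 48715 in 4 TBI libraries, 182760 in TBI replicate 6, 141034 to 149988 in IgG RIT, 194270 in CD45 RIT replicate 1 and 47443 in CD45 RIT replicate 2. The 2 CD45 RIT libraries were the least alike pair of any group (Pearson r = 0.673 across genes on log2 CPM, against 0.906 to 0.979 within the other groups), and CD45 RIT replicate 2 had counts for only 17700 genes. The summed level of 15 neutrophil genes was 10294 to 12934 in untreated libraries. It was 95.1 to 1223 after TBI, 603 to 804 after IgG RIT and 5.36 to 183 after CD45 RIT. That of 15 general blood cell genes was 2908 to 3366 in untreated libraries. It was 599 to 1838 after TBI, 652 to 718 after IgG RIT and 224 to 487 after CD45 RIT. The part of such RNA in the changes of the members was not tested. In bulk libraries, fewer cells of a type and less RNA per cell cannot be told apart. Untreated and RIT libraries also came from separate runs of library numbers, 2 to 7 against 11 to 16, so anything that goes with the library number cannot be told apart from the treatment.

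Lpl (GRCm38 chr8:68880491-68907448) was the member whose CD45 RIT level stood furthest above its untreated level in CPM. Levels of single genes are CPM on library sizes scaled by the trimmed mean of M-values (TMM). Lpl stood at 84.1, 121, 108 and 149 CPM in the untreated libraries, at 22.9, 12.8, 24.3, 13.6 and 19 in the TBI libraries, at 33.7, 29.2 and 106 in the IgG RIT libraries, and at 8988 and 6429 in the CD45 RIT libraries. Both CD45 RIT libraries lay far above all others, every TBI library lay below every untreated one, and IgG RIT replicate 3 alone of its group lay within the untreated range. Against untreated, Lpl was higher by 6.06 log2 units (SE 0.498) after CD45 RIT, and it fell by 2.64 (SE 0.375) after TBI, with an adjusted p of 0.00296 (edgeR quasi-likelihood test, Benjamini-Hochberg adjustment over all tested genes, as for every adjusted p here). After IgG RIT the change in log2 of -1.03 (SE 0.424) did not pass (adjusted p = 0.113), but without IgG RIT replicate 3 it was -1.88 (adjusted p = 0.00912). In the TBI comparison the adjusted p became 0.143 when replicate numbers were used as a block.

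Cd36 (chr5:17781690-17888801) followed another order, with its highest group mean after IgG RIT. It stood at 38.1, 17.9, 50.3 and 45.1 CPM in untreated libraries, at 36.8, 67.4, 34.7, 63.8 and 210 after TBI, at 355, 280 and 268 after IgG RIT, and at 305 and 121 after CD45 RIT. All 5 RIT libraries lay above all untreated ones, and TBI replicate 6 stood apart from its group. Cd36 rose by 2.99 log2 units (SE 0.609, adjusted p = 0.00764) after IgG RIT and passed the threshold in 13 of 13 alternatives, with adjusted p between 1.83e-05 and 0.0274. After TBI the log2 fold change was 1.12 (SE 0.531, adjusted p = 0.291), and 0.42 without TBI replicate 6 (adjusted p = 0.713). After CD45 RIT it was 2.49 (SE 0.643). The libraries with the highest Cd36 were also those with the highest erythroid sum: the 5 libraries with Cd36 at 210 to 355 CPM had erythroid sums of 141034 to 194270, while the other 9 had sums of 9591 to 48715. The part of erythroid RNA in the Cd36 values was not tested.

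The paired binding proteins behaved differently from each other. Fabp4 (chr3:10204088-10208576), the binding protein of fat cells and of capillary endothelium, stood at 2.07, 5.47, 0.634 and 0.727 CPM in untreated libraries, at 3.82, 1, 0.524, 0.576 and 1.51 after TBI, at 1.1, 0.697 and 1.31 after IgG RIT, and at 701 and 799 after CD45 RIT. The first 3 groups overlapped and both CD45 RIT libraries lay far above them, at 701 CPM or more against 5.47 or less. The log2 fold change was 8.39 (SE 0.981) after CD45 RIT, -0.58 (SE 0.679, adjusted p = 0.756) after TBI and -1.11 (SE 0.817, adjusted p = 0.373) after IgG RIT. Fabp5 (chr3:10012548-10016607), known from skin and macrophages, stood at 29.2, 37.7, 33.4 and 40.5 CPM in untreated libraries, at 149, 112, 211, 133 and 101 after TBI, at 33.9, 36.8 and 34.5 after IgG RIT, and at 65.7 and 107 after CD45 RIT. It was the only member whose highest group was TBI: all 5 TBI libraries lay above all untreated and IgG RIT libraries, and IgG RIT lay inside the untreated range. Its log2 fold changes against untreated were 2.00 (SE 0.245) after TBI, -0.01 (SE 0.264) after IgG RIT and 1.30 (SE 0.289) after CD45 RIT. A processed pseudogene of similar sequence, Fabp5l2, had 6 to 91 counts, and how the counting shared reads between such copies is not given in the sources used here.

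**Figure D1:**
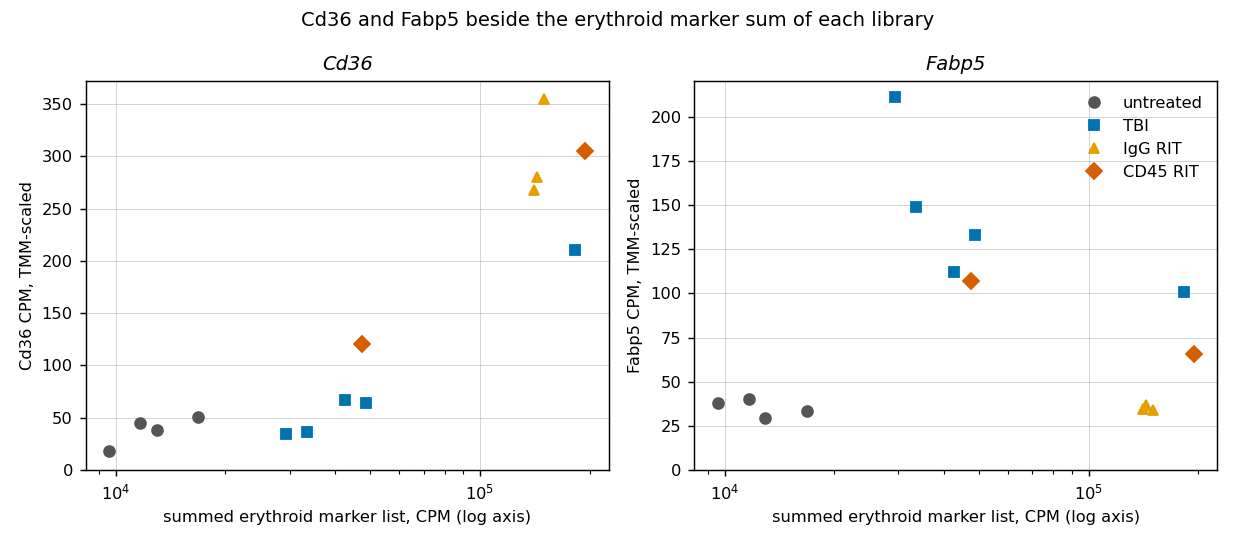
Level of Cd36 (left) and Fabp5 (right), each in TMM-scaled CPM on a linear axis, against the summed level of 19 erythroid genes (CPM, log axis), 1 point per library with colour and shape by group. For Cd36 the 3 IgG RIT libraries, TBI replicate 6 and CD45 RIT replicate 1 lie together at high erythroid sums, whereas for Fabp5 the IgG RIT libraries lie at the untreated level (33.9 to 36.8 CPM) in spite of their high sums.

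Apoe (chr7:19696109-19699188), the apolipoprotein by which lipoprotein remnants are taken up by their receptors, fell in both treatments without a CD45 target. It stood at 476, 715, 291 and 363 CPM in untreated libraries, at 52.4, 57.5, 49.5, 37.8 and 107 after TBI, at 143, 107 and 71.3 after IgG RIT, and at 4575 and 5213 after CD45 RIT. No TBI or IgG RIT library reached the lowest untreated one, and both CD45 RIT libraries lay above the highest. Apoe fell by 2.92 log2 units (SE 0.346, adjusted p = 0.00136) after TBI and by 2.11 (SE 0.406, adjusted p = 0.00622) after IgG RIT, and was higher by 3.41 (SE 0.419) after CD45 RIT. Both falls passed the threshold in every alternative run, 15 for TBI and 13 for IgG RIT. These 2 comparisons share the untreated libraries.

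Pparg (chr6:115360951-115490399) was a low gene outside the CD45 RIT group. It stood at 6.78, 6.85, 3.57 and 6.68 CPM in untreated libraries, at 1.73, 0.587, 0.811, 0.711 and 2.08 after TBI, at 1.68, 3.04 and 7.67 after IgG RIT, and at 234 and 50.6 after CD45 RIT. The TBI libraries all lay below the untreated ones, and the IgG RIT libraries spanned the untreated range on both sides. The 2 CD45 RIT libraries, both above all others, were 234 against 50.6 CPM, the widest ratio between them among the members apart from Plin1 and Cidec. Pparg fell by 2.34 log2 units (SE 0.579, adjusted p = 0.0413) after TBI, a call that was lost in 11 of 15 alternatives, with adjusted p up to 0.332, among them the leaving out of any single untreated library. After IgG RIT its log2 fold change was -0.53 (SE 0.646, adjusted p = 0.609), and after CD45 RIT 4.57 (SE 0.724).

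Adipoq (chr16:23146536-23158028) encodes adiponectin, a hormone of fat cells and a marker of marrow stromal cells primed toward fat. It stood at 114, 269, 75.9 and 172 CPM in untreated libraries, at 32.8, 9.5, 21.4, 8.94 and 49.9 after TBI, at 40.4, 61.3 and 45.2 after IgG RIT, and at 4301 and 3051 after CD45 RIT. All TBI and IgG RIT libraries lay below all untreated ones and both CD45 RIT libraries above. Adipoq fell by 2.69 log2 units (SE 0.515, adjusted p = 0.0128) after TBI, and with the replicate block the adjusted p was 0.107. Its log2 fold change after IgG RIT was -1.69 (SE 0.597, adjusted p = 0.0726), which did not pass, and that after CD45 RIT was 4.54 (SE 0.648).

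Car3 (chr3:14863512-14872523) encodes a carbonic anhydrase, an abundant enzyme of fat cells and slow muscle, and was the member that fell most after IgG RIT. It stood at 115, 71.4, 19 and 120 CPM in untreated libraries, at 28.3, 14.8, 18.5, 25.2 and 11.7 after TBI, at 8.91, 5.18 and 6.83 after IgG RIT, and at 2032 and 2612 after CD45 RIT. Untreated replicate 3 lay within the TBI range, while all IgG RIT libraries lay below every untreated and every TBI library. Car3 fell by 3.54 log2 units (SE 0.572, adjusted p = 0.00316) after IgG RIT, in 13 of 13 alternatives, and by 2.04 (SE 0.44, adjusted p = 0.0225) after TBI, in 9 of 15 alternatives, with adjusted p up to 0.308. After CD45 RIT its log2 fold change was 4.84 (SE 0.57). The sum of 15 skeletal muscle genes was 45.8 to 62.2 CPM in untreated, 62.2 to 84.4 in TBI, 77.8 to 104 in IgG RIT and 59.1 to 95.3 in CD45 RIT libraries, with 4 to 7 of the 15 at 0 in the CD45 RIT libraries. Of the 9 tested, 3 rose and 1 fell after CD45 RIT, where 14.5% of all tested genes rose and 18.6% fell. Mb, myoglobin, was at 8.04 and 10.3 CPM there against at most 0.104 in untreated libraries and Actn3 at 53.7 and 0.337 against at most 3.91, while Ckm, the muscle creatine kinase, had 0 and 1 counts and the myosins Myh1 and Myh4 had 0 counts in all 14 libraries. The part of muscle RNA in the Car3 values was not tested.

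The droplet coat genes were at or near 0 outside the CD45 RIT group. Plin1 (chr7:79720218-79732903), the perilipin of fat cells, had 2, 0, 4 and 0 counts in untreated libraries, 9, 1, 2, 1 and 1 after TBI, and 1, 0 and 4 after IgG RIT. It had 722 counts (44 CPM) in CD45 RIT replicate 1 and 91 counts (4.38 CPM) in CD45 RIT replicate 2. Cidec (chr6:113424634-113435760) had 10 counts in CD45 RIT replicate 1, 1 count in untreated replicate 4 and 0 in the other 12 libraries, so that no difference in it was detectable at this depth. Other fat cell genes differed between the 2 CD45 RIT libraries in both directions. The adipsin gene Cfd had 215 counts in replicate 1 and 0 in replicate 2, and resistin (Retn) 173 and 2, whereas the glycerol phosphate dehydrogenase gene Gpd1 had 31 and 1138, Agpat2, an enzyme of triglyceride synthesis, 160 and 1483, and Aqp7, the glycerol channel of fat cells, 1821 and 2875. Leptin (Lep), at 8 and 1 counts, was no higher than in the untreated libraries (1 to 21 counts). Ucp1, the defining gene of brown fat, had 0 to 1 counts in every library.

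**Figure D2:**
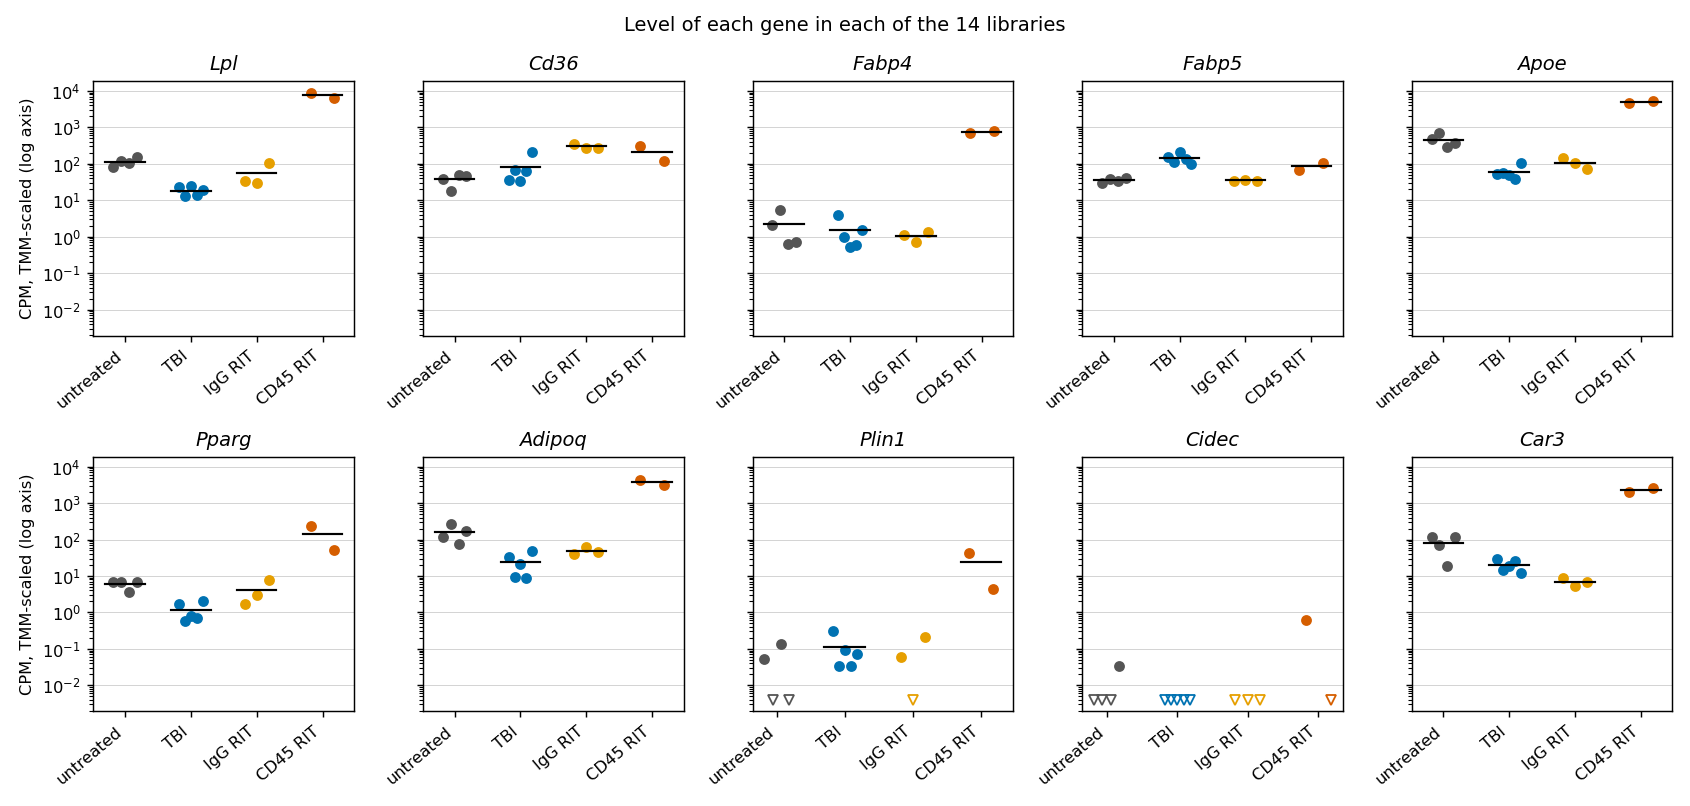
Level of each of the 10 genes (TMM-scaled CPM, log axis) in every library, by treatment group. Filled points are libraries, short lines are group means where no library was at 0, and open triangles at the bottom mark libraries with 0 counts. CD45 RIT libraries are above all others for Lpl, Fabp4, Apoe, Pparg, Adipoq, Plin1 and Car3, TBI is the highest group for Fabp5, and IgG RIT for Cd36.

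Counted together, 5 of the 8 tested members other than Fabp5 fell after TBI (Lpl, Apoe, Pparg, Adipoq and Car3), 0 rose and 3 did not pass, where 4.31% of all tested genes passed, 0.921% as rises and 3.38% as falls. After IgG RIT 1 rose (Cd36), 2 fell (Apoe and Car3) and 5 did not pass, where 16.4% of all tested genes passed, 5.75% as rises and 10.7% as falls. No such count is given for CD45 RIT, on which the members were chosen. Plin1 is 1 of the 8 and did not pass in either comparison. With at most 4 counts in an untreated library it could not have been called as a fall, so its not passing carries no weight. Of the 8 members, 4 had no overlap with untreated after TBI and 4 after IgG RIT, where 19.1% and 43.1% of all tested genes had none. Without TBI replicate 6 the same 5 members passed as falls, with Apoe at -3.23 and Adipoq at -3.12. With CD45 RIT replicate 2 as the only CD45 RIT library, Lpl was at 5.78, Fabp4 at 8.46, Adipoq at 4.26, Car3 at 4.99 and Pparg at 3.07, and with replicate 1 alone at 6.25, 8.26, 4.74, 4.6 and 5.25 (log2 fold changes; the lone library is assumed to vary like the other groups). All 4 members without overlap in TBI (Lpl, Apoe, Pparg and Adipoq) were lower there. In IgG RIT 3 of the 4 (Apoe, Adipoq and Car3) were lower. The directions of all tested genes without overlap were not counted, so these have no share to stand beside. For IgG RIT, 4 of 8 is also near the 43.1% of all tested genes.

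**Figure D3:**
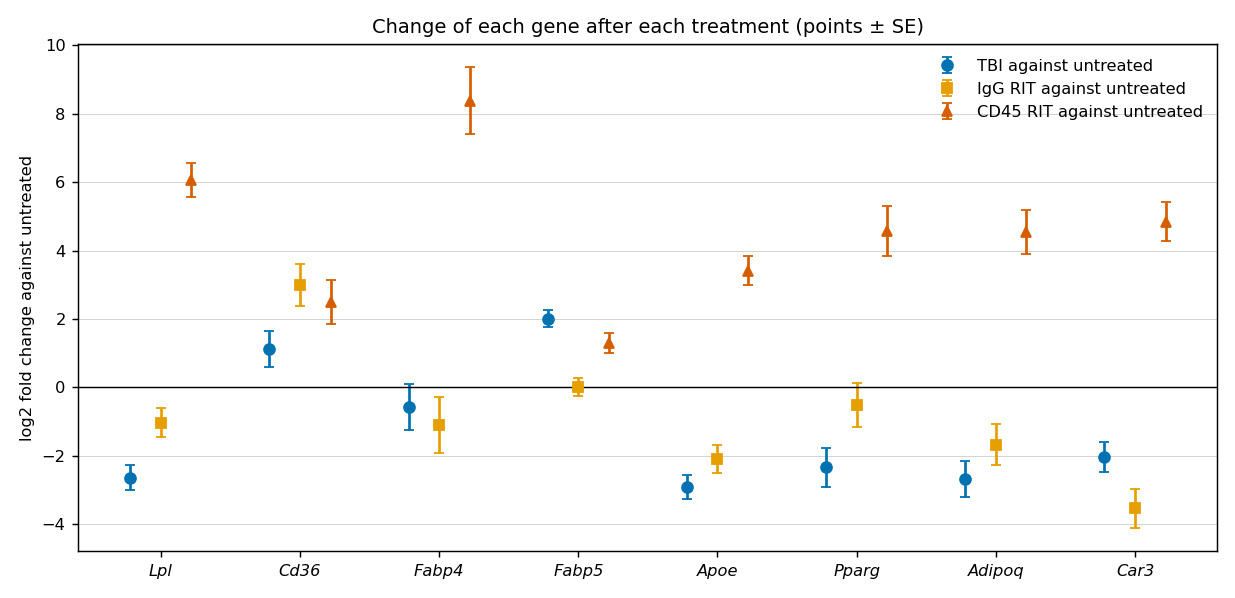
Log2 fold change against untreated of 8 members after TBI, IgG RIT and CD45 RIT (points, bars 1 SE on each side). Plin1 and Cidec are left out because their untreated counts were at or near the detection floor. After TBI, 5 members lie below 0 by more than 2 on the log2 scale, Fabp5 lies at 2.00, and after CD45 RIT all 8 lie above 0.

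The treatments were also set against each other directly. Between IgG RIT and TBI, 0 of the 8 members other than Fabp5 passed the edgeR test, where 0.242% of all tested genes passed. Plin1, 1 of the 8, had at most 9 counts in any of these libraries. DESeq2 called Lpl, Cd36 and Pparg, in a run that called 2096 of 20319 genes. Cd36 was higher after IgG RIT by 1.87 (log2, SE 0.552, adjusted p = 0.118), and by 2.57 without TBI replicate 6 (adjusted p = 0.00433). Lpl was higher by 1.61 (SE 0.388, adjusted p = 0.0824, and 0.0386 without TBI replicate 6), and Car3 was at -1.50 (SE 0.507, adjusted p = 0.154). Fabp5 was lower after IgG RIT in all 3 libraries, at -2.01 (log2, SE 0.275). Set against the other treatments, CD45 RIT was higher than IgG RIT by 7.09 for Lpl, 9.49 for Fabp4, 8.38 for Car3 and 6.23 for Adipoq on the log2 scale. Cd36 was the exception, at -0.50 (SE 0.713) against IgG RIT, where its libraries overlapped. Against TBI, Lpl was higher by 8.70 and Apoe by 6.33, while Fabp5 was at -0.71 (SE 0.3).

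Levels of different genes can be compared only per length, and here CPM per kilobase of the principal transcript was used. In untreated libraries the order was Apoe (328 ± 132, SD, n = 4), Adipoq (122 ± 65.1), Car3 (48.5 ± 28), Fabp5 (35.7 ± 5.02), Lpl (28.1 ± 6.57), Cd36 (11.1 ± 4.18), Pparg (3.38 ± 0.906) and Fabp4 (2.48 ± 2.52), with Plin1 and Cidec below 0.1. The libraries of each neighbouring pair from Apoe down to Lpl overlapped, as did Pparg and Fabp4, so only the steps from Lpl to Cd36, from Cd36 to Pparg and from Fabp4 to Plin1 were clear of the spread. After TBI, Fabp5 came first (143 ± 43.8, SD, n = 5), clear of Apoe (43.2 ± 19). After IgG RIT, Cd36 came first (88.6 ± 13.9, SD, n = 3) and overlapped Apoe, the next. After CD45 RIT the order was Apoe (3476 ± 320, SD, n = 2), Adipoq (2845 ± 684), Lpl (1873 ± 440), Car3 (1383 ± 244) and Fabp4 (837 ± 77.3), followed by Fabp5 (87.5 ± 29.6), Pparg (80.5 ± 73.4) and Cd36 (62.7 ± 38.3). A different member thus led after TBI and after IgG RIT, while Apoe had the highest mean in untreated and CD45 RIT libraries. In both of these groups its libraries overlapped those of Adipoq. Per kilobase of the deposited gene length, Adipoq (2662) came before Apoe (2289) and Car3 (811) before Lpl (736) after CD45 RIT.

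Because stromal genes moved with the members, each library's members were also set against its own stromal RNA, both per count of Cxcl12 and per summed level of the 20 stromal genes, of which Cxcl12 is 1. Cxcl12 stood at 693 to 1638 CPM in untreated, 39.7 to 233 in TBI, 188 to 606 in IgG RIT and 24845 to 26836 in CD45 RIT libraries. All 20 stromal genes rose after CD45 RIT, where 14.5% of all tested genes rose. Between untreated and CD45 RIT libraries, 4 of 6 members gave the same picture by either measure. Lpl was higher after CD45 RIT, at 0.074 to 0.156 against 0.24 to 0.362 per Cxcl12 and at 0.0124 to 0.0395 against 0.0874 to 0.187 per stromal sum. Fabp4 was higher too, at 0.000631 to 0.00334 against 0.0282 to 0.0298 per Cxcl12 and at 0.00012 to 0.00105 against 0.0109 to 0.0146 per stromal sum. Adipoq overlapped by both measures, at 0.11 to 0.164 against 0.114 to 0.173 per Cxcl12 and at 0.0167 to 0.0517 against 0.0415 to 0.0895 per stromal sum, and so did Pparg.

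The other members of the comparison turned on the measure. Car3 overlapped per Cxcl12 (0.0274 to 0.112 in untreated, 0.0818 to 0.0973 in CD45 RIT libraries) but was higher after CD45 RIT per stromal sum (0.00695 to 0.0198 against 0.0355 to 0.0423). Apoe was lower per Cxcl12 (0.315 to 0.462 against 0.184 to 0.194) but overlapped per stromal sum (0.0601 to 0.137 against 0.0709 to 0.0952). In TBI libraries, Adipoq, Pparg and Fabp4 lay wholly above the untreated libraries per Cxcl12, for example Adipoq at 0.176 to 0.239, while per stromal sum all 6 members overlapped the untreated libraries, Adipoq at 0.00549 to 0.0361. The part of the stromal share in the changes of the members was not tested beyond these ratios.

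**Figure D4:**
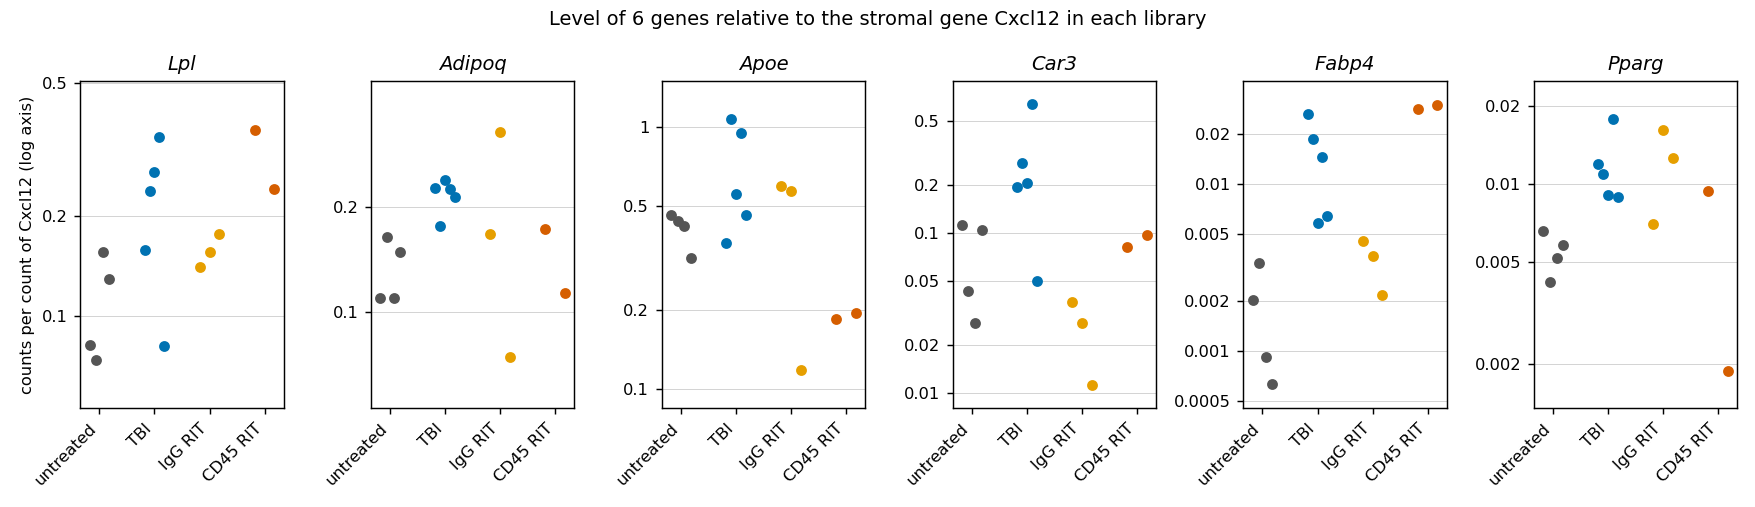
Counts of 6 members per count of the stromal gene Cxcl12 in each library (log axes with their own ranges), by treatment group. By this measure Adipoq, Car3 and Pparg of the CD45 RIT libraries overlap the untreated ones, Lpl and Fabp4 lie above them and Apoe below; per summed stromal level, Car3 lies above and Apoe overlaps.

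Macrophages, which also express Apoe, Lpl and Pparg, carry CD45 and should be removed by the CD45- sort. The sum of 18 macrophage genes was 316 to 404 CPM in untreated, 150 to 167 in TBI, 137 to 195 in IgG RIT and 2638 to 3452 in CD45 RIT libraries, with 6 to 7 of the 18 at 0 in the CD45 RIT libraries. Of the 16 tested, 8 rose and 3 fell after CD45 RIT, where 14.5% of all tested genes rose and 18.6% fell. Most of the sum was Vcam1, which stromal cells also express. Without Vcam1 and Axl the sum was 954 and 397 CPM in the CD45 RIT libraries and 248 to 271 in untreated ones. Slc40a1 made up most of what was left in CD45 RIT replicate 1. It had 19625 and 5235 counts in the CD45 RIT libraries against 1743 to 2608 in untreated ones. C1qb was at 18.5 and 56.4 CPM in the CD45 RIT libraries against at most 1.11 in untreated ones, and Cd68 at 17.5 and 71.9 against 10.6 to 17.7. Csf1r was at 2.62 and 2.88 against 34.5 to 50.7, and Adgre1, which encodes F4/80, had 0 counts in both CD45 RIT libraries. The part of macrophage RNA in the values of Apoe, Lpl and Pparg was not tested.

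Upstream sequence is shown for Adipoq, Apoe and Pparg, which fell after TBI, were high after CD45 RIT and have a RefSeq start site. Each is the 250 bases before the start, GRCm38.p6, 5′ to 3′ on the strand of the gene: Adipoq chr16:23146286-23146535 (plus strand), Apoe chr7:19699189-19699438 (minus strand) and, for Pparg, chr6:115421816-115422065 (plus strand), before the downstream start, that of the isoform known from fat cells. The Pparg window lies inside the gene, downstream of other listed Pparg starts. Capitals mark matches to any of the motifs searched.
Adipoq: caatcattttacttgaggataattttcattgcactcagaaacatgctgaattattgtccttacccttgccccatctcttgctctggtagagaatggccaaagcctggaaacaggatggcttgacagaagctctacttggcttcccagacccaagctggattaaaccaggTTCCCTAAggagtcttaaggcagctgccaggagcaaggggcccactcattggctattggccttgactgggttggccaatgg
Apoe: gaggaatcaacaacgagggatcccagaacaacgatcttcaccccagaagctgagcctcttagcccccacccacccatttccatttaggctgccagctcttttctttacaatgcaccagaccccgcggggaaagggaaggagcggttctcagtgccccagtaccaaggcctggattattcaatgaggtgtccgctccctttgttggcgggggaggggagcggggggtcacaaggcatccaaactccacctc
Pparg: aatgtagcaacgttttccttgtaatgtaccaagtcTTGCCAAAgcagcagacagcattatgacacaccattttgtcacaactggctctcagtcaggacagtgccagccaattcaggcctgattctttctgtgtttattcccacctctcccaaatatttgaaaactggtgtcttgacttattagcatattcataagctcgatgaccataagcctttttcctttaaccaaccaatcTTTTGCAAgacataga
The motifs were the element bound by PPARγ with its partner RXR (AGGTCA in 2 copies on the same strand with 1 base between them), its repeat unit AGGTCA alone, TTNNGNAA for C/EBP factors and CCCNNGGGA for EBF factors, each on both strands, and TATAAA on the gene's strand. A match to the element is also a match to AGGTCA. The C/EBP letters occurred once in the Adipoq window, 81 bases before the start, in 2 places in the Pparg window and in none of the Apoe window, while 36.9% of 32841 RefSeq promoter windows held them. The PPARγ element was in none of the 11 windows of the 6 members listed by RefSeq, and 0.0335% of all windows held it. AGGTCA alone was in 14% of all windows, the EBF letters in 5.6% and TATAAA in 7.59%. These are matches of letters only.

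Other genes of the same pathways were followed in 8 lists, with 133 genes besides the members, of which 107 were tested. After TBI 1 rose and 9 fell, after IgG RIT 5 rose and 28 fell, and after CD45 RIT 38 rose and 14 fell, beside the 4.31%, 16.4% and 33.1% of all tested genes called, the last being 14.5% risen and 18.6% fallen. Their median log2 fold change was -0.59, -1.30 and 1.04, against -0.16, -0.42 and -0.37 over all tested genes. With genes at the detection floor set to their bounds, the medians were -0.59, -1.18 and 1.04. Some genes of the lists, among them Gpihbp1 and Thrsp, passed the filter only through the CD45 RIT libraries, in which they are high. Calls of such genes after CD45 RIT are a description and no test, and the counts of risen genes include those of Gpihbp1 and Thrsp. The lists were made with earlier results of these data known. Many genes named below are the largest called changes of their list. Their adjusted p-values are therefore a description too and no independent support.

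Among 13 tested genes of the lipase system, 7 passed after CD45 RIT, 5 risen and 2 fallen. Over all tested genes 14.5% rose and 18.6% fell. Gpihbp1, which carries lipoprotein lipase to the capillary surface, had 0 counts in every untreated library and 83 and 995 in the CD45 RIT libraries, at least 284-fold higher on average against a floor of 3 counts per library. In CD45 RIT replicate 1 alone it was at least 54.3-fold higher. Angptl4, a secreted inhibitor of the lipase and a PPAR target, was at 68.3 CPM ± 24.5 (SD, n = 4) in untreated, 28.6 ± 8.07 (n = 5) in TBI, 26.6 ± 13.3 (n = 3) in IgG RIT and 903 ± 64.6 (n = 2) in CD45 RIT libraries. It fell after TBI (log2 fold change -1.26, adjusted p = 0.0393) and IgG RIT (-1.36, adjusted p = 0.0253) and rose after CD45 RIT (3.73, adjusted p = 3.79e-05). Lmf1, which the lipase needs to fold, did not pass in any of the 3 comparisons, with 21.5 CPM ± 7.03 (SD, n = 4) in untreated and 40.7 ± 45.4 (SD, n = 2) in CD45 RIT libraries. The lipase, its carrier and its inhibitor were thus all high in both CD45 RIT libraries.

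Of 17 adipogenic regulators tested, 3 passed after TBI, all as falls, and 8 after CD45 RIT, 7 risen and 1 fallen. Over all tested genes 4.31% passed after TBI and 33.1% after CD45 RIT. Cebpa, the partner of Pparg in fat cell formation, fell by 2.94 on the log2 scale after TBI (adjusted p = 0.00467) and by 2.57 after IgG RIT (adjusted p = 0.0102), and rose by 2.98 after CD45 RIT (adjusted p = 0.00175). Ebf3, a factor of marrow reticular cells, fell by 3.41 after TBI (adjusted p = 0.0303) and rose by 3.41 after CD45 RIT (adjusted p = 0.0141). The leptin receptor gene Lepr, which marks those cells, had 80 CPM ± 19.2 (SD) over the 4 untreated libraries, 16.8 ± 14.3 over the 5 TBI libraries and 1740 ± 123 over the 2 CD45 RIT libraries.

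Droplet and lipolysis genes had the largest share past the threshold after CD45 RIT, 12 risen and 1 fallen of 18 tested. Over all tested genes 14.5% rose and 18.6% fell. G0s2, an inhibitor of the lipase that empties droplets, rose by 4.95 on the log2 scale (adjusted p = 0.000217) after CD45 RIT and fell by 3.05 after TBI (adjusted p = 0.00893). Aqp7 went from 1.91 CPM ± 0.989 (SD, n = 4) in untreated to 125 ± 19.3 (SD, n = 2) in CD45 RIT libraries (adjusted p = 0.0063) and had 0 counts in all IgG RIT libraries, at least 11.9-fold below untreated. Rarres2, which encodes the adipokine chemerin, fell after TBI (-2.28, adjusted p = 0.00715) and IgG RIT (-1.49, adjusted p = 0.0426) and rose after CD45 RIT (3.81, adjusted p = 0.000144). Lrp1, a receptor for particles that carry ApoE, rose by 4.50 after CD45 RIT (adjusted p = 0.000645) and fell by 2.63 after TBI (adjusted p = 0.023).

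Fatty acid synthesis genes split after CD45 RIT, 3 risen and 3 fallen of 11 tested, beside 14.5% and 18.6% of all tested genes. Fasn, the fatty acid synthase, fell by 4.39 on the log2 scale (adjusted p = 0.000455), from 54.7 CPM ± 9.71 (SD, n = 4) in untreated to 2.6 ± 0.89 (SD, n = 2), and Elovl6, which lengthens its product, was at least 157-fold lower than its untreated level of 25.7 CPM. Thrsp, a lipogenic gene of fat cells, stood at 44.4 CPM ± 16.2 (SD, n = 2) against 0.132 ± 0.157 (SD, n = 4) in untreated libraries. No p is given for Thrsp, which passed the filter on low counts only through the CD45 RIT libraries. Me1, malic enzyme, rose to 71.2 ± 27 (SD, n = 2) from 1.31 ± 1.04 (SD, n = 4) (adjusted p = 0.0124). Uptake, storage and synthesis genes of the lists thus did not all move one way in the same libraries.

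Car3 has neighbours of the same family on chromosome 3 that are known from red cells. Car1 was at 1571 CPM ± 308 (SD, n = 4) in untreated, 579 ± 80.2 (n = 5) in TBI, 548 ± 61.4 (n = 3) in IgG RIT and 34.5 ± 48.5 (n = 2) in CD45 RIT libraries. The changes of Car1 in log2 after TBI (-1.44, adjusted p = 0.392) and IgG RIT (-1.52, adjusted p = 0.294) had the sign of those of Car3 and did not pass, and it fell by 5.51 after CD45 RIT (adjusted p = 0.0113), where Car3 was high. Car2 rose by 2.04 after IgG RIT (adjusted p = 0.0258), where Car3 fell, from 3078 ± 213 (SD, n = 4) to 12689 ± 966 (SD, n = 3).

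The genes most like each member over the 14 libraries were found by the root mean square difference of centred log2 CPM, among genes whose log2 CPM averaged 3 or more. Nearest to Adipoq were Agt (0.391), Mdk and Cd302, nearest to Apoe were Fcgrt (0.359), Rarres2 (0.377) and Tmem176a (0.405), and nearest to Lpl were Fstl1 (0.485), Prelp and Spry1. The nearest genes lay further from Car3 (Podxl2, 0.545) and Pparg (Nnmt, 0.549), and furthest from Fabp4 (Anxa8, 1.08) and Plin1 (Phlda3, 1.19). Cd36 had the closest match of all members, Klhl25 (0.287), followed by Ypel5 (0.316) and Sh3yl1 (0.343), and Fabp5 was nearest to Trpv2 (0.585). The differences were not scaled by a member's own spread (SD of log2 CPM over the libraries). That spread was 1.37 for Cd36 and 0.949 for Fabp5, against 2.87 for Lpl and 3.33 for Fabp4. Among the members themselves, the closest pairs were Apoe with Adipoq (0.677), Pparg with Adipoq (0.75) and Lpl with Adipoq (0.828). Far more genes were searched outside the set than within it, so nearer genes outside it carry no meaning here.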

How the data were processed

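RNA of sorted marrow cells was made into SMART-Seq libraries without molecular identifiers, per the labels' protocols, so amplified copies count as separate reads. The table deposited by the authors holds raw read counts of each gene, as whole numbers. STAR 2.7.7a, FastQC 0.11.9 and edgeR 3.36.0 are named, per the submitters' processing notes. The build named there, hg38, is human, whereas 54587 of 55335 deposited identifiers are in GENCODE M21 (GRCm38, mouse), 54587 of them with the same coordinates, all 10 members included. The counter and its use of strand and shared reads are not given in the sources used here.

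Groups came from the treatment labels. Using edgeR 4.0.16 (R 4.3.3), low genes were removed with filterByExpr (minimum count 10, minimum total 15), scaled by TMM, and fitted over all 14 libraries with the robust quasi-likelihood model, 1 coefficient per group and 6 contrasts. P-values were adjusted by Benjamini-Hochberg over the 21509 tested genes, and called under 0.05. SE is the size of the log2 fold change over the square root of F. Mean and SD are over libraries. Closest pairs of libraries within a group differed by more than counting noise, so none was taken as a duplicate. The steps were tested on simulated counts.

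The members and the gene lists were chosen with earlier results of these data known. Named genes are the members, up to 2 called risers and 2 called fallers per pathway list and treatment (mean log2 CPM of at least 0; some of these are not described), a few fixed genes such as Gpihbp1, Angptl4 and Lepr, and the 3 nearest patterns per member. Ebf3 and the other named list genes follow that rule. Promoter sequences are from RefSeq (GRCm38.p6), with entries for 6 of the 10 members. Alternatives were RLE factors, no scaling factors, no filter, a replicate block, DESeq2 1.42.0, each library left out, and only the 2 compared groups in the fit.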

Additional observations from a re-analysis of the deposited data

Results flagged for a closer look

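Pparg in untreated replicate 3 stood at 3.57 CPM, below the other 3 untreated libraries at 6.68 to 6.85. On the log2 CPM scale its gap to the nearest library was 0.962 of the range of the group, above Dixon's 95% critical value for a group of 4. It was 1 of 18 groups of values tested, and chance flags about 1 in 20. The stromal sum was lowest in the same library of the untreated group, at 3310 CPM against 6299 to 8366, and its part in the Pparg value was not tested.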

How the results depend on the processing

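Counts of members past the threshold are here over all 9 that passed the filter, Fabp5 and Plin1 included, so they are a description of the settings and no test. They were 6 for TBI against untreated, 3 for IgG RIT and 1 for IgG RIT against TBI, and 8 for CD45 RIT against IgG RIT, a comparison on which the members were chosen. Counts of other pathway genes were 10 (TBI against untreated), 33 (IgG RIT), 52 (CD45 RIT), 55 (CD45 RIT against IgG RIT), 60 (CD45 RIT against TBI) and 0 (IgG RIT against TBI). Without scaling factors the members called were 5 in IgG RIT against untreated, and the pathway genes 3 in IgG RIT against TBI. That setting moves the median log2 fold change of all genes from -0.42 to -0.94 (IgG RIT), from -0.37 to -1.08 (CD45 RIT), from -0.16 to -0.28 (TBI), from -0.16 to -0.56 (IgG RIT against TBI), from -0.39 to -0.96 (CD45 RIT against TBI) and from -0.13 to -0.32 (CD45 RIT against IgG RIT), and splits the pathway calls of CD45 RIT into 25 risen and 16 fallen, in place of 38 and 14. The directions of the members described as risen or fallen did not flip under any scaling. With DESeq2, members called were 4 in IgG RIT against TBI, and pathway genes 16 in TBI against untreated and 17 in IgG RIT against TBI. Over all genes DESeq2 called 2484 of 21140 in TBI against untreated and 2096 of 20319 in IgG RIT against TBI. With only the 2 compared groups in the fit, a choice made after seeing the data, members called were 5 in CD45 RIT against IgG RIT and 2 in IgG RIT against TBI, and pathway genes 27 in TBI against untreated, 26 in CD45 RIT against IgG RIT and 7 in IgG RIT against TBI. When 1 library was left out, pathway genes called ranged from 4 to 10 (TBI against untreated), 16 to 26 (IgG RIT against untreated) and 0 to 17 (IgG RIT against TBI), and members called from 0 to 4 (IgG RIT against TBI). Some log2 fold changes changed sign when 1 library was left out. Fabp4 ran from -1.33 to 0.37 in TBI against untreated and from -0.74 to 0.22 in IgG RIT against TBI. Plin1 ran from -1.86 to 0.62 in IgG RIT against TBI and from -0.66 to 1.96 in IgG RIT against untreated. Fabp5 ran from -0.09 to 0.07 in IgG RIT against untreated. None of these was called with all libraries. The cause was not tested.

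With the replicate number as a block, in which TBI replicates 5 and 6, whose numbers no other group has, carry no comparison, members called in TBI against untreated were 2 and pathway genes 1, and pathway genes were 16 (IgG RIT), 34 (CD45 RIT), 35 (CD45 RIT against TBI) and 1 (IgG RIT against TBI); Fabp4 in TBI against untreated was at 0.013. The numbers share no stated litter or day, and deviations of same-numbered libraries correlated at -0.0896 to 0.139, so they were not taken as pairs, although 5 of 6 libraries (TBI against untreated) and 6 of 6 (IgG RIT against untreated) correlated best with their own number. Depth limits Plin1 and Cidec. Outside CD45 RIT, Plin1 had at most 9 counts in a library and Cidec lay under the floor of 3 counts.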
